A study of Homo sapiens with 12 samples.

Results

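The lysosome and the proton pump that acidifies it are described here by 36 genes. 15 of them encode subunits or accessory proteins of the vacuolar proton pump (V-ATPase). The other 21 are 12 acid hydrolases, 3 proteins of lipid degradation and sterol export, and 6 membrane proteins and regulators. The genes were listed by name and role, with earlier results of these data known. Each was read from its probe set with the highest mean level, and all 36 were measured, out of 18417 genes with a probe set of their own. The labels give the cells as Calu-3, a human airway epithelial line derived from a lung adenocarcinoma, although the extraction notes speak of primary cultures. All were transfected with a lipid reagent, so each group carried a small RNA: a miR-138 mimic on 3 arrays, a SIN3A siRNA on 3 arrays, or NC1, a scrambled control RNA, on 6 arrays. The labels give neither the dose of RNA nor the time to harvest. Their titles say biological replicate for every array, without describing separate cultures, so the p-values below measure only the spread between arrays.

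The lumen of a lysosome is kept acid by the V-ATPase, a rotary machine. Its V1 domain in the cytosol hydrolyses ATP, and the turning rotor drives protons through the V0 domain in the membrane. The acid serves hydrolases that degrade proteins, glycans and lipids, and in epithelia the organelle is a place where internalised membrane proteins, CFTR among them, end. Many of these genes carry a short palindrome in their promoters, the CLEAR element, which the transcription factor TFEB binds. SIN3A is a corepressor that brings histone deacetylases to genes. The labels do not say which strand of miR-138 the mimic carried. The mature strand of the 5′ arm, the usual guide, is shown with the seed (bases 2 to 8) that pairs with targets in capitals (RefSeq, GRCh38.p14, chr3:44114234-44114256, plus strand, and the same letters at chr16:56858527-56858549, plus strand).
hsa-miR-138-5p: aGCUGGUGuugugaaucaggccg

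SIN3A mRNA was at 5.93, 6.05 and 6.25 with the mimic and at 6.17, 5.88 and 6.03 with the siRNA, against 7.34, 7.16 and 7.11 on NC1 arrays 4 to 6 and 6.79, 6.71 and 6.36 on NC1 arrays 1 to 3 (log2 levels). Both interventions thus lay below every NC1 array. The NC1 arrays themselves differed between replicates 4 to 6 and replicates 1 to 3, with 10% of all genes called, so the results on the 36 genes and the further lists are also given against the 2 parts of the control apart. The parts follow the replicate numbers, and the labels give no reason for the difference. Single array values spanned log2 5.54 to 10.9 over 8 airway epithelial markers, 2.80 to 9.14 over 8 leukocyte and macrophage markers (highest LYZ, which airway secretory cells also express), 2.33 to 6.12 over 6 fibroblast and 3.38 to 4.67 over 5 endothelial markers. Against all NC1 arrays CFTR fell with the siRNA (log2 difference -1.34), and 0 of the 19 leukocyte, fibroblast and endothelial markers were called with either intervention (limma, 1 at an unadjusted p under 0.05 with each). Against single parts of NC1 the calls with the mimic were LYZ (-0.39) and MUC1 (-0.73), lower than in NC1 1 to 3, and CFTR (-0.57), lower than in NC1 4 to 6. With the siRNA they were CFTR, lower than in NC1 4 to 6 (-1.51) and NC1 1 to 3 (-1.16), and ELF3 (-0.38), lower than in NC1 4 to 6. Levels are log2 intensities summarised per probe set, so they were compared between arrays and not between genes. Arrays give no counts. Their number limits the precision, with a median standard error of 0.10 for a log2 difference of siRNA from NC1.

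Genes of the proton pump rose together with the SIN3A siRNA, 8 of the 15 rising and 1 falling. The 8 were 4 subunits of V1 and 4 of V0, while ATP6V1A, the catalytic subunit of V1, was the one that fell. Of the 21 other members 3 rose (GLA, NEU1 and NPC2) and 0 fell, with 7 at an unadjusted p under 0.05. Over all 36 members that was 12 calls, or 33.3%, where 4.01% of all genes were called (2.35% higher and 1.66% lower, limma adjusted p under 0.05 over all genes). Of these members 34 lay above the median level of all genes. In a fit of genes above that level alone, 12 members were again called, where 8.45% of those genes were. The median log2 difference was 0.31 over the pump genes and 0.06 over the other members, against -0.005 over all genes. In 16 members all 3 siRNA arrays were higher than all 6 NC1 arrays, and in 1 they were lower, where 5.49% and 3.53% of all genes showed this.

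**Figure D1:**
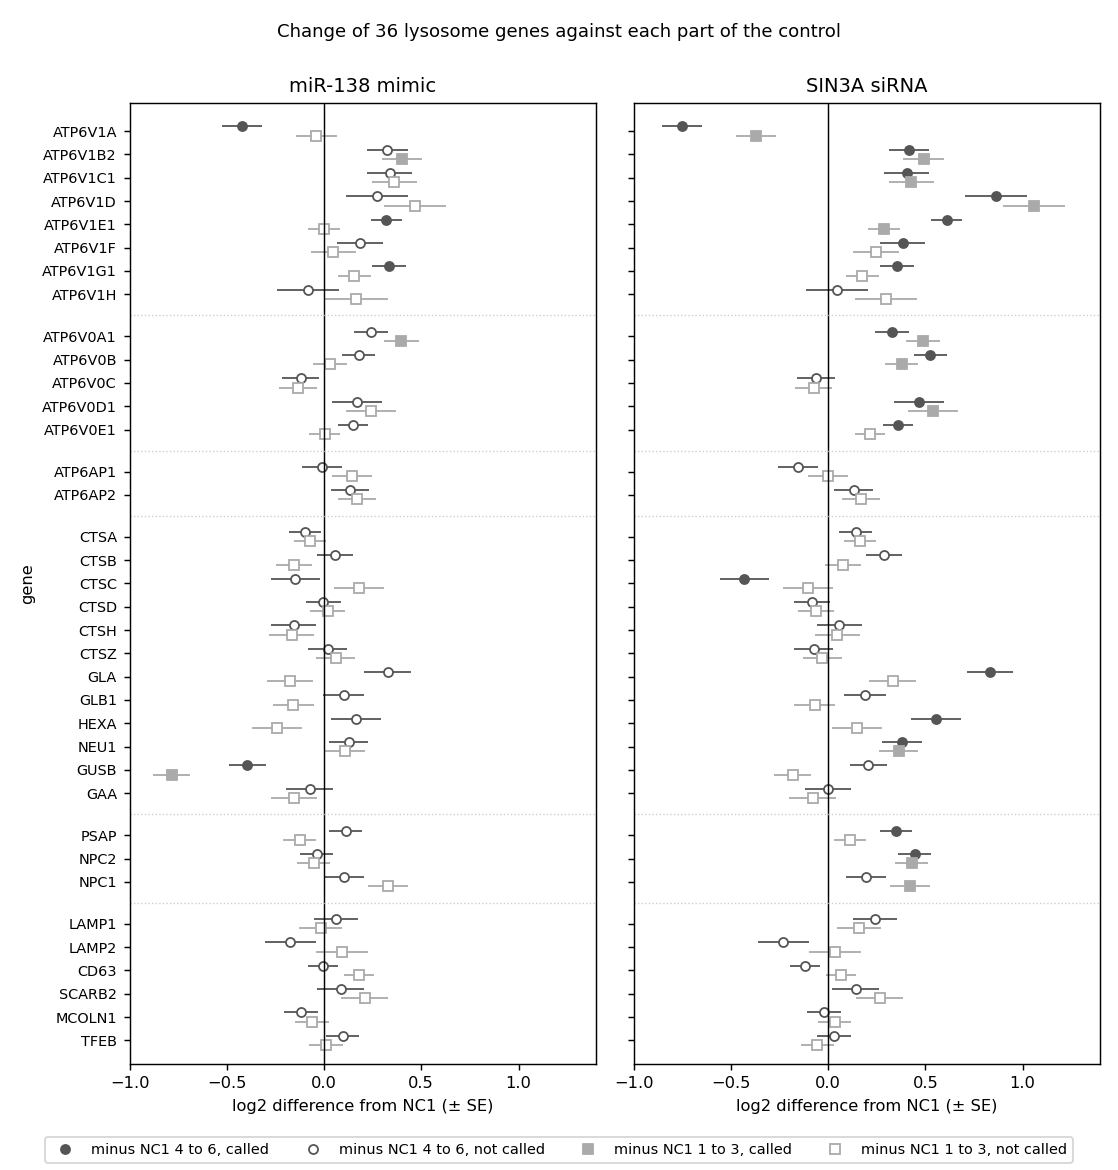
Log2 difference from the control for each of the 36 genes with the miR-138 mimic (left) and the SIN3A siRNA (right), against NC1 arrays 4 to 6 (circles) and 1 to 3 (squares). Bars are standard errors of the limma fit and filled symbols were called. Dotted lines part V1, V0, accessory, hydrolase, lipid and membrane genes, and with the siRNA most symbols of V1 and V0 lie to the right of 0.

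Among the V1 subunits, ATP6V1D, which forms the central shaft of the rotor, showed the largest difference. It was at 7.97, 7.89 and 7.90 with the siRNA, against 7.19, 7.22 and 6.77 on NC1 arrays 4 to 6 and 7.26, 6.81 and 6.51 on NC1 arrays 1 to 3. The siRNA arrays were close together and the lowest stood well above the highest NC1 array, although the NC1 arrays were widely spread. The level was 1.95-fold higher (log2 difference 0.96, SE 0.15, limma adjusted p = 0.00320). ATP6V1B2, the B subunit that alternates with A in the head of V1, was at 7.25, 7.07 and 7.17 with the siRNA, against 6.82, 6.86 and 6.57 on NC1 arrays 4 to 6 and 6.81, 6.57 and 6.64 on NC1 arrays 1 to 3. It rose 1.37-fold (log2 difference 0.45, SE 0.09, limma adjusted p = 0.0135), without overlap. ATP6V1C1, which helps to join V1 to V0, was at 6.60, 6.81 and 6.70 with the siRNA, against 6.34, 6.46 and 6.10 on NC1 arrays 4 to 6 and 6.46, 6.32 and 6.05 on NC1 arrays 1 to 3. The groups did not overlap here either, and the rise was 1.33-fold (log2 difference 0.42, SE 0.10, limma adjusted p = 0.0338).

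ATP6V1E1, part of the outer stalks that hold the head still, was at 8.69, 8.63 and 8.71 with the siRNA, against 8.09, 8.06 and 8.06 on NC1 arrays 4 to 6 and 8.35, 8.35 and 8.47 on NC1 arrays 1 to 3. All siRNA arrays were higher, by a margin that differed between the parts of the control, and the rise over all NC1 arrays was 1.36-fold (log2 difference 0.45, SE 0.10, limma adjusted p = 0.0208). ATP6V1A, the A subunit where ATP is cleaved, went the other way. It was at 5.63, 5.89 and 5.87 with the siRNA, against 6.65, 6.64 and 6.36 on NC1 arrays 4 to 6 and 6.29, 6.11 and 6.12 on NC1 arrays 1 to 3. It fell to 67.8% of the NC1 level (log2 difference -0.56, SE 0.12, limma adjusted p = 0.0216), with every siRNA array below every NC1 array. ATP6V1F of the rotor (0.31, adjusted p = 0.128) and ATP6V1G1 of the stalks (0.26, adjusted p = 0.0995) did not pass in limma, although their siRNA arrays too lay above all NC1 arrays. The regulatory subunit gene ATP6V1H was at 0.17 (limma adjusted p = 0.665, 95% interval -0.16 to 0.50), with overlap.

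Among the V0 subunits the rise was of like size in 3 genes. ATP6V0B, a proteolipid of the ring that carries protons through the membrane, was at 6.48, 6.51 and 6.63 with the siRNA, against 6.06, 5.98 and 5.99 on NC1 arrays 4 to 6 and 6.20, 6.24 and 6.04 on NC1 arrays 1 to 3. It rose 1.37-fold (log2 difference 0.45, SE 0.08, limma adjusted p = 0.00685). ATP6V0A1, the subunit that lines the path of the protons beside the ring, was at 7.90, 7.94 and 8.02 with the siRNA, against 7.59, 7.71 and 7.58 on NC1 arrays 4 to 6 and 7.55, 7.46 and 7.38 on NC1 arrays 1 to 3. It rose 1.33-fold (log2 difference 0.41, SE 0.08, limma adjusted p = 0.0139). ATP6V0D1, which couples the rotor shaft to the ring, was at 6.16, 6.13 and 6.21 with the siRNA, against 5.83, 5.87 and 5.40 on NC1 arrays 4 to 6 and 5.43, 5.58 and 5.87 on NC1 arrays 1 to 3. Its siRNA arrays were tightly grouped above scattered NC1 arrays, and the rise was 1.42-fold (log2 difference 0.50, SE 0.11, limma adjusted p = 0.0235). The small membrane subunit gene ATP6V0E1 was at 9.58, 9.57 and 9.64 with the siRNA, against 9.20, 9.30 and 9.21 on NC1 arrays 4 to 6 and 9.41, 9.33 and 9.41 on NC1 arrays 1 to 3. Its rise was 1.22-fold (log2 difference 0.29, SE 0.07, limma adjusted p = 0.0402). The other proteolipid gene, ATP6V0C, was at -0.07 (limma adjusted p = 0.771, 95% interval -0.25 to 0.11). The accessory genes were at -0.08 for ATP6AP1 and 0.15 for ATP6AP2, the prorenin receptor (limma adjusted p = 0.769 and 0.427), and neither was called.

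**Figure D2:**
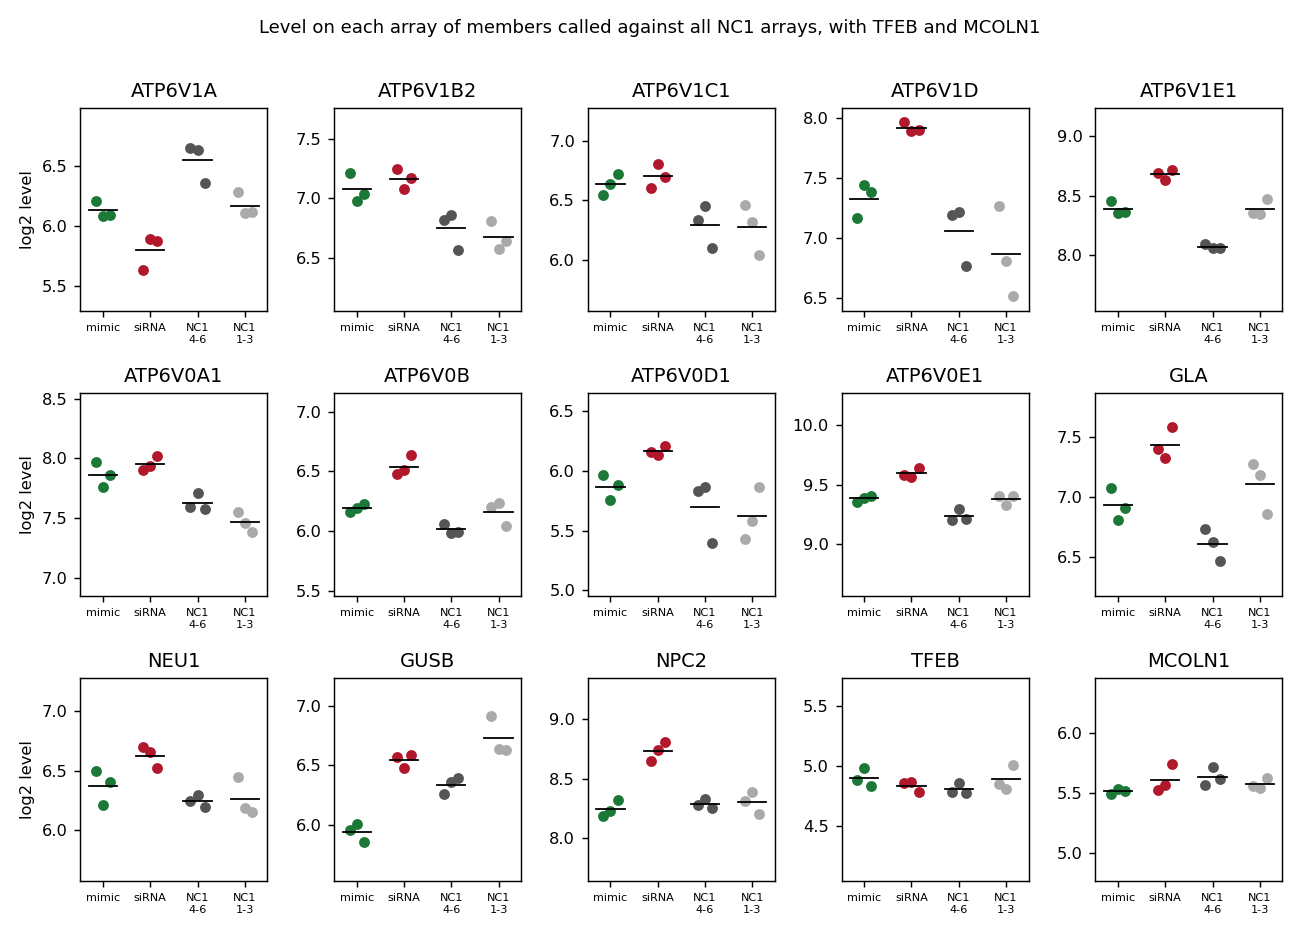
Log2 level on each array (points) with the group mean (line) for the 13 members called with either intervention against all NC1 arrays, and for TFEB and MCOLN1. All vertical axes span the same log2 range. With the siRNA 11 genes lie above all NC1 arrays and ATP6V1A below, while the mimic arrays of GUSB (5.96, 6.01 and 5.86) lie lowest.

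Of the 12 hydrolases 2 rose with the siRNA. GLA, alpha-galactosidase A, was at 7.40, 7.33 and 7.59 with the siRNA, against 6.73, 6.62 and 6.46 on NC1 arrays 4 to 6 and 7.28, 7.19 and 6.86 on NC1 arrays 1 to 3. The siRNA arrays were highest, NC1 1 lay close beneath them, and NC1 4 to 6 were lowest. The rise over all NC1 arrays was 1.50-fold (log2 difference 0.58, SE 0.15, limma adjusted p = 0.0485), and its standard error was the widest among the members called with the siRNA. NEU1, the lysosomal sialidase, was at 6.70, 6.65 and 6.52 with the siRNA, against 6.25, 6.30 and 6.19 on NC1 arrays 4 to 6 and 6.45, 6.19 and 6.16 on NC1 arrays 1 to 3, 1.29-fold higher (log2 difference 0.37, SE 0.09, limma adjusted p = 0.0293). NEU1 has 3 probe sets, of which 2 hold the same values and the third showed a difference of 0.35. The cathepsins ranged from -0.27 for CTSC, a dipeptidyl peptidase, to 0.18 for the cysteine protease CTSB (limma adjusted p = 0.355 and 0.365). Between them lay the aspartic protease CTSD at -0.07, CTSZ at -0.05, CTSH at 0.05 and CTSA at 0.15, 0 of 6 called (limma, with CTSA alone at an unadjusted p under 0.05). CTSA, the protective protein that holds NEU1 and beta-galactosidase together, had its 3 siRNA arrays above all NC1 arrays, at 7.57, 7.57 and 7.54 against 7.42, 7.42 and 7.42 on NC1 arrays 4 to 6 and 7.43, 7.37 and 7.40 on NC1 arrays 1 to 3. HEXA, a subunit of beta-hexosaminidase, was at 0.35 (limma adjusted p = 0.236), GLB1, beta-galactosidase, at 0.06, GAA, acid alpha-glucosidase, at -0.04 and GUSB, beta-glucuronidase, at 0.01.

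NPC2, which takes up cholesterol in the lumen and hands it to NPC1, was among the most stable calls. It was at 8.64, 8.74 and 8.81 with the siRNA, against 8.28, 8.33 and 8.25 on NC1 arrays 4 to 6 and 8.32, 8.39 and 8.20 on NC1 arrays 1 to 3. All 6 NC1 arrays lay within a narrow band and all siRNA arrays above it, a rise of 1.35-fold (log2 difference 0.44, SE 0.07, limma adjusted p = 0.00529). NPC1, the membrane partner, was at 0.31 and PSAP, the precursor of the saposins, at 0.23. Neither passed (limma adjusted p = 0.120 and 0.191), although the siRNA arrays of both lay above all NC1 arrays. Among the membrane proteins and regulators 0 of 6 were called (limma, 0 of 6 also at an unadjusted p under 0.05). LAMP1 and LAMP2, the main glycoproteins of the lysosomal membrane, were at 0.20 and -0.10. The tetraspanin CD63 was at -0.03 and SCARB2, which carries glucocerebrosidase to the lysosome, at 0.20. TFEB was at 4.86, 4.87 and 4.78 with the siRNA, against 4.79, 4.86 and 4.77 on NC1 arrays 4 to 6 and 4.85, 4.81 and 5.01 on NC1 arrays 1 to 3. These groups overlapped, with a log2 difference of -0.01 and a 95% interval of -0.17 to 0.15 (limma adjusted p = 0.967). All TFEB values lay below the medians of the arrays over all probe sets (5.09 to 5.16). At so low a signal the interval limits a change in TFEB mRNA only weakly. MCOLN1, the calcium channel of the lysosome, was at 5.53, 5.56 and 5.74 with the siRNA, against 5.56, 5.72 and 5.61 on NC1 arrays 4 to 6 and 5.56, 5.54 and 5.63 on NC1 arrays 1 to 3. Its groups overlapped as well (difference 0.01, interval -0.15 to 0.16).

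The sign of the difference was the same against each part of the control for each of the 9 pump genes called against all NC1 arrays, while sizes and calls moved. Against NC1 4 to 6 the siRNA had 15 members higher and 2 lower (17 called, where 11.4% of all genes were, 5.16% higher and 6.28% lower). Against NC1 1 to 3 it had 10 higher and 1 lower (11 called, where 5.7% of all genes were, 3.66% higher and 2.04% lower). 9 members were higher in both comparisons, where 1.5% of all genes were, namely ATP6V1B2, ATP6V1C1, ATP6V1D, ATP6V1E1, ATP6V0A1, ATP6V0B, ATP6V0D1, NEU1 and NPC2. ATP6V1A was lower in both, where 0.972% of all genes were. The 2 comparisons share the siRNA arrays and are not independent. Of 18 alternative fits, listed with the processing below, the call against NC1 1 to 3 was lost in 14 for NEU1. It was lost in 13 each for ATP6V1E1 and ATP6V1A and in 11 for ATP6V1C1. For ATP6V0D1 it was lost in 6, for ATP6V0B in 4 and for NPC2 in 2. ATP6V1B2, ATP6V1D and ATP6V0A1 kept it in all. For NPC2 the differences from NC1 4 to 6 and 1 to 3 were 0.44 and 0.43, for ATP6V1D 0.86 and 1.06, and for NEU1 0.38 and 0.36. They differed more for GLA (0.83, called, and 0.33, not called), ATP6V1E1 (0.61 and 0.29) and ATP6V1A (-0.75 and -0.37). Called against NC1 4 to 6 alone were also HEXA (0.55), PSAP (0.35), ATP6V1F (0.38), ATP6V1G1 (0.35), ATP6V0E1 (0.36) and, lower, CTSC (-0.43). NPC1 was called against NC1 1 to 3 alone (0.42).

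Within the control, NC1 4 to 6 against NC1 1 to 3, 4 members were called, 11.1% of them, where 10% of all genes were (6.86% higher and 3.18% lower). ATP6V1A was higher in NC1 4 to 6 (6.65, 6.64 and 6.36, against 6.29, 6.11 and 6.12 in NC1 1 to 3, limma adjusted p = 0.0279). ATP6V1E1 (-0.32), GLA (-0.50) and GUSB (-0.39) were lower in NC1 4 to 6 (limma adjusted p = 0.0161, 0.0122 and 0.0143). After a second quantile normalization 7 members were called, 1 higher and 6 lower, and of all genes called 1051 of 1883 were higher, in place of 1264 of 1850. GLA, GUSB, ATP6V1E1 and ATP6V1A are also members called with an intervention, so the size of their change depends on which NC1 arrays it is set against.

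The number of calls with the siRNA rested on all 3 siRNA arrays. Against all NC1 arrays it was 4, 4 or 2 members without siRNA array 1, 2 or 3 (1.38%, 1.04% and 0.896% of all genes), and the 2 left without array 3 were ATP6V1D and NPC2. Among the 12 members called against all NC1 arrays, these 2 alone kept that call under every alternative that was run. With each other array left out the count was 8 to 12. Over all 18 alternatives the call of GLA was lost in 14, that of ATP6V0E1 in 12 and that of ATP6V1C1 in 7. Those of ATP6V1E1 and NEU1 were lost in 6 each, ATP6V1A in 5, ATP6V0D1 in 4, and ATP6V1B2, ATP6V0A1 and ATP6V0B in 2 each. The 5 for ATP6V1A, the gene that fell, included each fit without 1 siRNA array. After a second quantile normalization 9 members were called, 8 higher and 1 lower, without ATP6V1E1, ATP6V0E1 and GLA. Of all genes called 379 of 763 were then higher, in place of 433 of 739.

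With the miR-138 mimic 0 of 15 pump genes passed against all NC1 arrays. 13 of the 15 differences were above 0, with a median of 0.15 (all genes -0.01) and 5 at an unadjusted p under 0.05. Of all genes 0.641% were called higher and 0.402% lower (1.04% together). The largest pump differences were those of ATP6V1D (7.16, 7.44 and 7.39 with the mimic, difference 0.37, limma adjusted p = 0.325), ATP6V1B2 (7.21, 6.98 and 7.03, 0.36, adjusted p = 0.0777), ATP6V1C1 (6.55, 6.64 and 6.72, 0.35, adjusted p = 0.141) and ATP6V0A1 (7.97, 7.76 and 7.86, 0.32, adjusted p = 0.0903). For the last 3 of these and for ATP6V1G1 (7.42, 7.52 and 7.54) every mimic array lay above every NC1 array, which makes 4 of 36 members above (3.89% of all genes) beside 2 below (2.54% of all genes). For ATP6V1D the mimic arrays overlapped the NC1 arrays. ATP6V0B, at 6.16, 6.19 and 6.23 with the mimic, overlapped the NC1 arrays too (difference 0.10).

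The 1 member called with the mimic was GUSB, which fell. It was at 5.96, 6.01 and 5.86 with the mimic, against 6.26, 6.36 and 6.40 on NC1 arrays 4 to 6 and 6.91, 6.64 and 6.63 on NC1 arrays 1 to 3. The groups did not overlap, and the mean was 66.5% of that in NC1 (log2 difference -0.59, SE 0.12, limma adjusted p = 0.0299). It was called lower against each part of the control (-0.39 against NC1 4 to 6, adjusted p = 0.0275, and -0.78 against NC1 1 to 3, adjusted p = 9.25e-05, limma), where 0.407% of all genes were lower in both. The call against all NC1 arrays was lost without NC1 2, siRNA 1, siRNA 2 or any mimic array, or with only the compared arrays in the fit (highest limma adjusted p = 0.179), and the one against NC1 4 to 6 was lost without NC1 5, NC1 6 or any mimic array (5 of 17 alternatives, highest limma adjusted p = 0.141). The call against NC1 1 to 3 was kept in all alternatives. GUSB is often used as a reference gene for RNA levels, as the enzyme is present in most cells.

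Against the parts of the control apart, 4 members were called with the mimic against NC1 4 to 6 (3.49% of all genes, 1.59% higher and 1.89% lower) and 3 against NC1 1 to 3 (8.55% of all genes, 6.01% higher and 2.54% lower). Beside GUSB these were ATP6V1E1 (0.32) and ATP6V1G1 (0.33), higher, and ATP6V1A (-0.42), lower, against NC1 4 to 6, and ATP6V1B2 (0.40) and ATP6V0A1 (0.40), higher, against NC1 1 to 3. After a second quantile normalization 0 members were called higher and 2 lower against each part. 0 members were higher in both, where 0.619% of all genes were. The share of members called against NC1 1 to 3, 8.33%, was near that of all genes. Among the 21 other members the median difference from all NC1 arrays was -0.01, against 0.15 for the pump genes. NPC2 was at 8.19, 8.23 and 8.32 with the mimic (-0.05), GLA at 7.08, 6.81 and 6.91 (0.08) and NEU1 at 6.50, 6.21 and 6.41 (0.12), all within or overlapping the NC1 arrays. TFEB was at 4.89, 4.98 and 4.84 (interval of the difference -0.11 to 0.21), again at a low signal. The 3 mimic arrays of MCOLN1 (5.49, 5.54 and 5.51) lay just below all NC1 arrays (mean difference -0.09, limma adjusted p = 0.733).

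**Figure D3:**
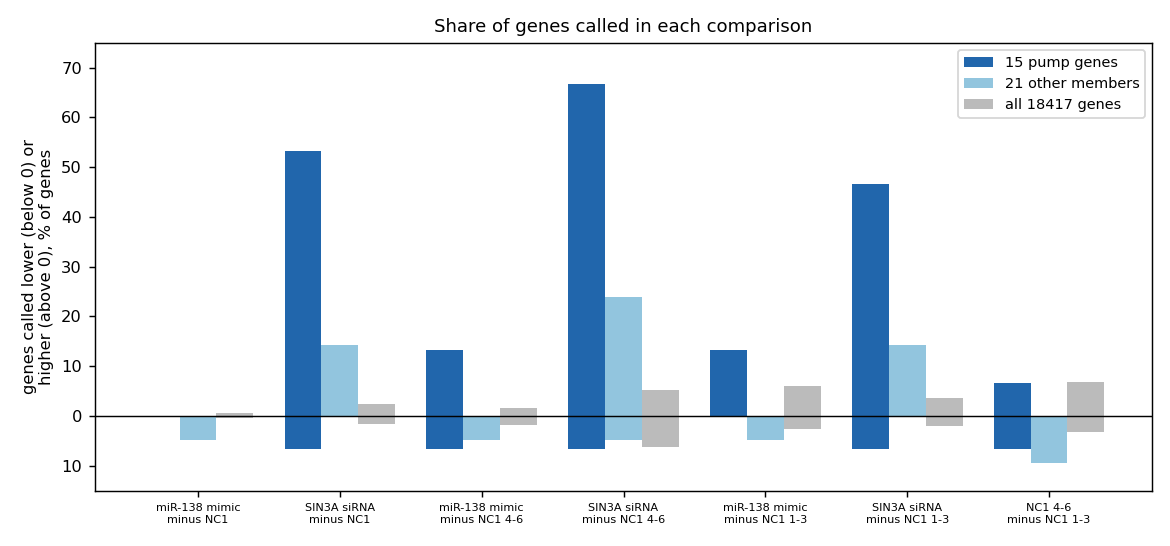
Percentage of the 15 pump genes, the 21 other members and all 18417 genes called higher (upward bars) or lower (downward bars) in 7 comparisons (limma adjusted p under 0.05). With the siRNA 8 of 15 pump genes were called higher against all NC1 arrays, where 2.35% of all genes were. With the mimic 0 were.

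Compared directly, the mimic and siRNA arrays differed in 2 of 36 members, 5.56%, where 1.57% of all genes were called (0.679% higher and 0.89% lower, limma). In 13 members all mimic arrays were below all siRNA arrays and in 4 above, where 13.1% and 13.3% of all genes were. NPC2 was lower with the mimic (8.19, 8.23 and 8.32) than with the siRNA (8.64, 8.74 and 8.81), with a log2 difference of -0.48 (SE 0.08, limma adjusted p = 0.0116). GUSB was also lower with the mimic (5.96, 6.01 and 5.86) than with the siRNA (6.56, 6.48 and 6.59), with a difference of -0.60 (limma adjusted p = 0.0433). ATP6V0B (-0.35, adjusted p = 0.0740) and ATP6V1D (-0.59, adjusted p = 0.0965) had no overlap between the 2 groups yet did not pass in limma. ATP6V1B2, ATP6V1C1 and ATP6V0A1 were at -0.09, -0.07 and -0.09, with 95% intervals of -0.31 to 0.13, -0.32 to 0.18 and -0.29 to 0.12. The difference in SIN3A mRNA was 0.05 (interval -0.37 to 0.47). When the mimic was first compared with NC1 4 to 6 and the siRNA with NC1 1 to 3, a matching taken from earlier results of these data and not from the labels, 0 members were called in limma and 4 had an unadjusted p under 0.05. NPC2 then stood at -0.47 (adjusted p = 0.0597) and GUSB at -0.21.

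As a description, the mean log2 level over the 15 pump genes was 7.10 to 7.15 on the mimic arrays and 7.23 to 7.30 on the siRNA arrays, against 6.92 to 7.03 on NC1 arrays 4 to 6 and 6.90 to 7.03 on NC1 arrays 1 to 3. The 3 kinds of array did not overlap in this mean. Over the 21 other members the mean was 6.63 to 6.67 with the mimic and 6.77 to 6.84 with the siRNA, against 6.62 to 6.67 and 6.62 to 6.78 on NC1 4 to 6 and 1 to 3, where NC1 1 reached into the siRNA range. Over all genes it was 5.36 to 5.38 with the mimic and 5.36 to 5.37 with the siRNA, against 5.36 to 5.38 on NC1 4 to 6 and 5.35 to 5.37 on NC1 1 to 3.

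**Figure D4:**
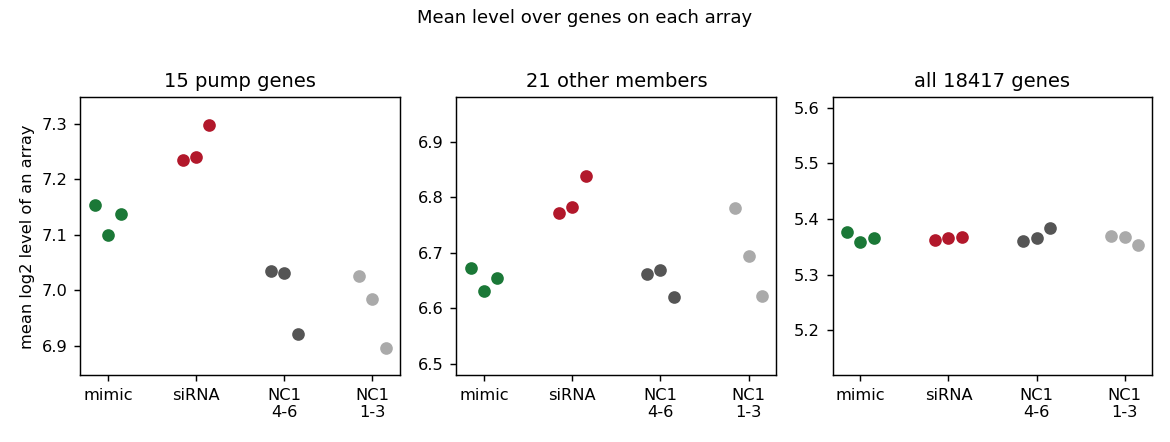
Mean log2 level on each array over the 15 pump genes, the 21 other members and all 18417 genes. The 3 panels span the same log2 range. Only in the pump panel do the mimic (7.10 to 7.15), siRNA (7.23 to 7.30) and NC1 arrays (6.90 to 7.03) lie apart, and the all-gene means are level.

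Other genes of the organelle, listed by their role in the pathway, were tested in the same fit. Against all NC1 arrays, where 4.01% of all genes were called with the siRNA, of 8 further pump genes measured, isoforms typical of other tissues among them, 0 were called (limma, median -0.05, 1 at an unadjusted p under 0.05). The mean over these 8 genes was low, 4.69 to 4.72 on the siRNA arrays and 4.71 to 4.77 on the NC1 arrays. The medians of the arrays over all probe sets were 5.09 to 5.16. At so low a signal the lack of calls says little about these genes. Of 31 further enzymes and cofactors 0 were called (median 0.04, 7 at an unadjusted p under 0.05). Of 20 further membrane and sorting genes 1 rose, SLC38A9, the arginine-sensing transporter that signals to mTORC1. It was at 6.23, 6.06 and 6.27 with the siRNA, against 5.89, 5.81 and 5.55 on NC1 arrays 4 to 6 and 5.78, 5.03 and 5.52 on NC1 arrays 1 to 3 (log2 difference 0.59, SE 0.15, limma adjusted p = 0.0417). Of 18 genes that dock mTORC1 on the lysosome or regulate TFEB-like factors 1 rose, RRAGC, one of the Rag GTPases. It was at 7.49, 7.54 and 7.36 with the siRNA, against 6.79, 6.80 and 6.96 on NC1 arrays 4 to 6 and 7.30, 7.00 and 6.76 on NC1 arrays 1 to 3 (log2 difference 0.52, SE 0.11, limma adjusted p = 0.0159), and all siRNA arrays of both genes lay above all NC1 arrays.

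With NC1 divided, the calls in the further lists were others. For NC1 4 to 6 and 1 to 3 the siRNA gave RRAGC differences of 0.61 and 0.44, both called, and SLC38A9 0.44 (limma adjusted p = 0.0803) and 0.74 (called). Of the 20 membrane and sorting genes 1 was called against NC1 4 to 6, CD68, a lysosomal glycoprotein (0.55), where 11.4% of all genes were. Against NC1 1 to 3 6 were called, 30% of the list where 5.7% of all genes were. Higher were SLC38A9, the sialic acid exporter SLC17A5 (0.41), LAPTM4B (0.34) and GNPTAB (0.55), which starts the mannose-6-phosphate tag of lysosomal enzymes, and lower were LAMP3 (-0.70) and OSTM1 (-0.42). Of the 31 enzymes and cofactors 5 were called with NC1 4 to 6 as control and 3 with NC1 1 to 3 (16.1% and 9.68%). Against NC1 4 to 6 the cysteine protease genes CTSS (0.44) and LGMN (0.33) and the nuclease gene DNASE2 (0.39) were higher, and PPT1 (-0.70) and PCYOX1 (-0.83) lower. Against NC1 1 to 3 CTSV (0.49) and GM2A (0.50) were higher and CTSO (-0.62) lower. No enzyme was called against both parts, and of the 8 further pump genes 0 were called against either (limma, 2 at an unadjusted p under 0.05 for NC1 4 to 6 and 0 for NC1 1 to 3).

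With the mimic, 1 gene of these 4 lists was called against all NC1 arrays, where 1.04% of all genes were. It was LAPTM4A, a transmembrane protein of lysosomes. It was at 9.22, 9.29 and 9.20 with the mimic, against 9.96, 9.93 and 9.78 on NC1 arrays 4 to 6 and 9.73, 9.63 and 9.56 on NC1 arrays 1 to 3. It fell to 69.4% of the NC1 level (log2 difference -0.53, SE 0.09, limma adjusted p = 0.0112), was lower against each part of the control (-0.65 and -0.40 for NC1 4 to 6 and 1 to 3), and was lower than with the siRNA (9.84, 9.89 and 9.90, difference -0.64, limma adjusted p = 0.00757). FNIP1, a partner of folliculin in nutrient signalling, was higher with the mimic (7.37, 7.40 and 7.41) than with the siRNA (6.77, 6.99 and 6.88), by 0.51 (limma adjusted p = 0.0269). It was not called against NC1 with either (0.35 with the mimic and -0.17 with the siRNA). Against NC1 4 to 6, where 3.49% of all genes were called with the mimic, LAPTM4A, LAMP3 (0.97) and CD68 (0.48) of the 20 membrane genes were called, with 1 of 31 enzymes, the lipase LIPA (0.51), and RRAGC (0.44). Against NC1 1 to 3, where 8.55% of all genes were, 4 of 20 membrane genes, 6 of 31 enzymes and 1 of 8 pump genes were called (20%, 19.4% and 12.5%). The membrane genes were LAPTM4A, lower, and SLC17A5 (0.40), GNPTAB (0.59) and the mannose-6-phosphate receptor gene M6PR (0.70), higher. Of the enzymes 3 were higher and 3 lower, and the pump gene was ATP6V0D2 (-0.34), lower.

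The promoters are shown because many members moved together with the siRNA and because the CLEAR element is the known mark of this gene group. RefSeq promoter windows (GRCh38.p14, the 250 bases before a transcription start) were at hand for 27 of the 36 members. Both strands were searched for CACGTG, for the CLEAR core TCACGTGA that contains it, and for a longer form, the core with a G before it and a C after it. All 3 are palindromes, read the same on both strands, and each overlaps the shorter one. CACGTG stood in 37.0% of these 27 members (10 genes), where 7.73% of all 27305 genes with a window held it. Counted by window it was 25.6% of 39 member windows, against 6.34% of all 35093. TCACGTGA stood in 22.2% (6 genes), where 1.04% of all genes held it, and the longer form in 11.1% (3 genes), where 0.374% did. Only exact matches before the start were counted. A near match, as at the end of the ATP6V1D window, and bases after the start are left out. A match is a description of the letters and not a bound site. Shown are a pump gene that rose and holds the core (ATP6V0D1), 1 that rose and holds CACGTG alone (ATP6V0B), the gene with the largest rise, which holds none (ATP6V1D), and the channel and hydrolase genes with the longest match, which were not called (MCOLN1 and GAA). Capitals mark CACGTG and, where present, the letters that extend it to the longer forms. The windows are ATP6V0D1 chr16:67481158-67481407, minus strand, ATP6V0B chr1:43974710-43974959, plus strand, ATP6V1D chr14:67359805-67360054, minus strand, MCOLN1 chr19:7522374-7522623, plus strand, and GAA chr17:80101331-80101580, plus strand.
ATP6V0D1: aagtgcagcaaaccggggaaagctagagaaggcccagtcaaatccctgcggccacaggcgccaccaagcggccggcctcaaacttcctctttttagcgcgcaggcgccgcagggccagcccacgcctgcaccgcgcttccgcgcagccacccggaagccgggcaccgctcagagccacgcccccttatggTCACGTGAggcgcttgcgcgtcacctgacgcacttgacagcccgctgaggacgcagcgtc
ATP6V0B: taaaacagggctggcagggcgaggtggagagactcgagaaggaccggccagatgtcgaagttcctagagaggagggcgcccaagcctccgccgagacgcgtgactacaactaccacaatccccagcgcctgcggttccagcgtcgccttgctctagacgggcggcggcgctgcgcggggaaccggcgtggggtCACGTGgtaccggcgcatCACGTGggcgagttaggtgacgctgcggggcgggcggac
ATP6V1D: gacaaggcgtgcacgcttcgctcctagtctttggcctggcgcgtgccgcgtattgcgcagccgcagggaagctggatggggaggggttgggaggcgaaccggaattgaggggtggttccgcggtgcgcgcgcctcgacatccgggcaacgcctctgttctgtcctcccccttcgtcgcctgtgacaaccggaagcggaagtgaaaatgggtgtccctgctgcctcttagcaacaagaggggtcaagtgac
MCOLN1: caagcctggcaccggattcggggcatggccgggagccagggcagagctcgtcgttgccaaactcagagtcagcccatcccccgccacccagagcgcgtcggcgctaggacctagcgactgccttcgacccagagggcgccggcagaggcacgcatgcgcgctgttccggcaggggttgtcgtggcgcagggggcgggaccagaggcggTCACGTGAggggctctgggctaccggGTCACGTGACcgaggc
GAA: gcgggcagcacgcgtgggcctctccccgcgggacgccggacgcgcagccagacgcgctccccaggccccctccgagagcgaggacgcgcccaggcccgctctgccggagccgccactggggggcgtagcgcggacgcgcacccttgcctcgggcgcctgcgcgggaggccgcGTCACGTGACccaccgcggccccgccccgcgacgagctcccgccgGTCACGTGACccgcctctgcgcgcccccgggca

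Members rose with the siRNA with and without the palindrome. No window was at hand for ATP6V1A, ATP6V1B2, ATP6V1C1 and ATP6V0E1. These pump genes were called with the siRNA but are missing from the counts that follow. Of the 10 members with CACGTG 3 rose (ATP6V0B, ATP6V0D1 and NEU1), and of the 17 without it 5 rose (ATP6V1D, ATP6V1E1, ATP6V0A1, GLA and NPC2). Of all genes 2.35% rose with the siRNA, and the share among all genes with CACGTG was not counted. The median log2 differences from NC1 were 0.18 over the 10 and 0.15 over the 17. Of the 6 with TCACGTGA 1 rose, ATP6V0D1, and of the 3 with the longer form 0 did, at 0.26 for ATP6V1G1, 0.01 for MCOLN1 and -0.04 for GAA. With the mimic, 0 of the 10 members with CACGTG were called and 1 of the 17 without it, GUSB (limma), where 1.04% of all genes were. The first CACGTG began 59 bases before the start in ATP6V0D1, 57 in ATP6V0B, 41 in MCOLN1 and 76 in GAA.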

How the data were processed

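RNA of 12 arrays of Calu-3 cells was measured with whole-transcript probe sets. The values were used as the authors deposited them, in log2 units, already summarised and normalized with RMA and Partek 6.3, per the submitters' processing notes, which do not say which step each did. Of 33297 probe sets 19460 carried 1 gene symbol in the platform annotation, and each of 18417 genes was taken from its single-symbol probe set with the highest mean over 12 arrays. Of the 36 members 1 had several probe sets.

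All arrays were fitted in limma 3.58.1 under R 4.3.3, once with 3 group means (9 residual degrees of freedom) and once with NC1 1 to 3 and 4 to 6 as separate groups (8). P-values were adjusted by Benjamini-Hochberg over all genes, and called means an adjusted p under 0.05. Intervals are 95% and unadjusted. On simulated data for SIN3A siRNA against NC1, over 18417 genes, 75% of genes changed by 0.5 and 99.5% of those changed by 1 on the log2 scale were called. All simulated NC1 arrays had a common mean, with the spread taken within groups after NC1 was split. The parts of the real NC1 differed, so these shares are likely higher than in the real comparison. No test over the gene list was made. The members, the lists and the split of NC1 were chosen with earlier results of these data known. Genes given array by array were those called in a comparison with all NC1 arrays or between the interventions, plus TFEB and MCOLN1, and, chosen after their values were seen, CTSA and ATP6V1G1. From the other lists, those called there were named. Genes of these lists and markers named for calls against a single part of NC1 were chosen after their values were seen. Sequences are from RefSeq tables. The alternatives were a second quantile normalization, genes above the median level, the mean of all single-symbol probe sets, trend and robust moderation, only the compared arrays, the replicate number as a block, the mimic set against NC1 4 to 6 and the siRNA against NC1 1 to 3 (a matching the labels do not give), and each of the 12 arrays left out.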

Additional observations from a re-analysis of the deposited data

Results flagged for a closer look

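In 37 genes (the members and SIN3A) the 6 NC1 arrays were checked for a highest or lowest array far from the rest, by the gap to the nearest array as a share of the range. 2 members passed it, and chance passes about 1 in 20. ATP6AP1 was at 5.72 on NC1 1, its other NC1 arrays being at 6.08 or above. Without that array its difference from NC1 was -0.15 with the siRNA and not called (limma adjusted p = 0.292). TFEB was at 5.01 on NC1 3, with the next NC1 array at 4.86. Without that array its difference was 0.02 with the siRNA (limma adjusted p = 0.929) and 0.09 with the mimic (limma adjusted p = 0.749).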

How the results depend on the processing

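Across all alternatives 5096 differences of single members were recomputed. 4829 kept direction and side of the threshold, or were called in neither fit (158 of these changed sign), 235 lost a call, 32 gained one and 0 changed sign with a call in either fit. The number of members called changed by over 1.5 times as follows. The share of all genes called is given in parentheses. With only the compared arrays in the fit, it was 5 for siRNA against NC1 (1.94%), 3 against NC1 1 to 3 (2.01%), 0 for mimic against NC1 (0.5%, 6 members at an unadjusted p under 0.05), 7 for mimic against siRNA (8%) and 0 for NC1 4 to 6 against 1 to 3 (5.28%, 8 members unadjusted). With genes above the median level alone, it was 5 for mimic against NC1 1 to 3 (17.6% of those genes). After a second quantile normalization it was 2 for mimic against NC1 4 to 6 (0 higher and 2 lower, 3.95%) and 7 for NC1 4 to 6 against 1 to 3 (1 higher and 6 lower, 10.2%), and the 2 calls for mimic against NC1 1 to 3 were then both lower. Of all genes that setting called 512 higher of 995 for siRNA against NC1 1 to 3, 881 of 1524 for mimic against NC1 1 to 3 and 1051 of 1883 for NC1 4 to 6 against 1 to 3, in place of 674 of 1050, 1107 of 1575 and 1264 of 1850. With the mimic set against NC1 4 to 6 and the siRNA against NC1 1 to 3 first, 0 were called for mimic against siRNA (2.09%, 4 members unadjusted).

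Leaving out 1 array gave 2 to 12 calls for siRNA against NC1 (0.896% to 5.61% of all genes), 0 to 1 for mimic against NC1 (0.212% to 1.43%), 0 to 3 for mimic against siRNA (0.315% to 3.08%), 4 to 10 and 11 to 18 for siRNA against NC1 1 to 3 and 4 to 6 (2.81% to 7.66% and 7.67% to 13.5%), 1 to 6 and 0 to 4 for mimic against NC1 1 to 3 and 4 to 6 (5.05% to 11.4% and 1.97% to 4.54%), and 2 to 6 for NC1 4 to 6 against 1 to 3 (5.77% to 12.9%). Where a count is 0, the members at an unadjusted p under 0.05 were 5 to 10. The count moved by over 1.5 times for siRNA against NC1 without siRNA 1, 2 or 3 (4, 4 and 2). For siRNA against NC1 1 to 3 it did so without NC1 2, 3 or 4 (5, 6 and 7), mimic 1 or 3 (7 each) or siRNA 1, 2 or 3 (6, 5 and 4), and for siRNA against NC1 4 to 6 without NC1 4, siRNA 2 or siRNA 3 (11 each). For mimic against NC1 it did so without NC1 2, siRNA 1, siRNA 2 or any mimic array (0 each), and for mimic against siRNA without NC1 6, siRNA 1 or mimic 3 (1 each) or without siRNA 2 or 3 or mimic 1 or 2 (0 each). For mimic against NC1 1 to 3 it did so without NC1 1 or mimic 1 (6 and 1), for mimic against NC1 4 to 6 without NC1 4, 5 or 6 (1, 0 and 2) or any mimic array (0 each), and for NC1 4 to 6 against 1 to 3 without NC1 2 or 5 (2 each). Each of these fits had 1 array less, and the cause of the moves was not tested.

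Replicate numbers 1 to 3 occur in all groups, but same-numbered arrays did not deviate together (correlation of deviations over genes -0.10 to 0.03, 0 of 9 pairs over 0.1). In 9 of 18 overlapping cases an array was closest to its own number, of 3, in another group, which decides nothing by itself. Because the correlations were low, the number was not taken as a pairing. With the replicate number as a block, on the arrays that share numbers, 5 members were called for siRNA against NC1 and NC1 1 to 3, where 3.84% of all genes were, and 3 for mimic against NC1, 8.33% of members where 6.96% of all genes were.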
